A study of Mus musculus with 6 samples.

Results

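The genes of TGF-beta, BMP and activin signalling were examined in mouse subcutaneous fat. The fat had been injected with a virus carrying the coding region of the RNA-binding protein Hnrnpa2b1, or with a control virus. The members are 47 genes chosen by symbol from the 52550 genes of the deposited count table: ligands, receptors, extracellular binding proteins, SMADs and the ID genes. All 47 were found, each under 1 gene ID. A filter on low counts left 45 of them among 19146 tested genes, and the other 2, Bmp8b and Grem1, were near the limit of detection.

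RNA was sequenced from inguinal white adipose tissue of C57BL/6 mice. In 3 libraries, called A2B1 1 to 3 here, the pad had received an adeno-associated virus (AAV) with the coding region of mouse Hnrnpa2b1. In 3 libraries, called control 1 to 3, it had received a control AAV, which the series text names AAV GFP and the sample labels describe as a scrambled control. Every pad therefore carried a virus. The promoter of the vector, the age of the mice, the time after injection and the number of animals behind a library were not stated in the sources used here. P-values therefore reflect how far these libraries vary, and some of that variation may be technical. The labels give the source as adipocytes, but RNA came from fat tissue: the adipocyte genes Adipoq and Plin1 were abundant, and endothelial, mural, fibroblast and macrophage markers were present in every library. Fewer cells of a type and less RNA per cell cannot be told apart in such samples.

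TGF-beta family ligands are secreted dimers that bring together type I and type II receptor kinases on the cell surface. The activated type I receptor phosphorylates SMAD proteins: Smad2 and Smad3 below TGF-beta and activin receptors, and Smad1, Smad5 and Smad9 below BMP receptors. These join Smad4 in the nucleus, while Smad6 and Smad7 inhibit the pathway and secreted proteins such as noggin and the follistatins trap ligands. In fat, TGF-beta is known for restraining adipocyte formation and promoting matrix deposition, several BMPs for favouring the adipocyte and thermogenic fates, and the receptor Acvr1c (ALK7) for lowering lipolysis in adipocytes.

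The libraries held 72961324 to 86663359 counts. Hnrnpa2b1 itself had 748 to 789 CPM (each library's counts scaled to the same total with TMM factors) in A2B1 libraries and 525 to 605 CPM in controls. Its log2 fold change was 0.45 (SE 0.09) with an adjusted p of 0.0654, so the delivered gene was higher in all 3 A2B1 libraries but did not pass the threshold of 0.05. Libraries also differed in genes of tissues other than fat. A list of 9 hepatocyte genes, among them albumin (Alb), was chosen after their values were seen. It summed to 11169, 98.9 and 1346 CPM in A2B1 libraries 1, 2 and 3 and to 129 to 219 CPM in controls, and 0 of the 9 genes were at 0 in either group. Alb alone had 430868, 5338 and 60063 counts in A2B1 libraries 1, 2 and 3, against 7669, 7731 and 12820 in controls 1, 2 and 3. The 6 B cell markers summed to 4.56 to 5.51 CPM in A2B1 libraries and to 294, 35.3 and 3.58 CPM in controls 1, 2 and 3, with 0 of the 6 at 0. Among 8 skeletal muscle markers, which summed to 26.6 to 34.2 CPM in A2B1 libraries and 32.8 to 169 in controls, Myog was at 0 everywhere, and the fast myosin Myh4 was seen in control 3 alone.

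Across the pathway, 1 of the 45 tested members passed the test and it fell: Bmp3. This is 2.22% of the members tested, where 1.82% of all tested genes had an adjusted p under 0.05 by the quasi-likelihood test of edgeR, 1.33% as lower and 0.496% as higher, so the share was near the background. In the higher direction 0 members were called by edgeR, by DESeq2 or by limma-voom, and 3 had an unadjusted p under 0.05, which is 6.67% of the members against 11.5% of all genes. In the lower direction 11 had an unadjusted p under 0.05, which is 24.4% of the members against 12.7% of all genes, and in either direction 14, or 31.1% against 24.2%. DESeq2 called 6 members lower, or 13.3%: Bmp3, Fstl3, Tgfb1, Nog, Tgfb3 and Bmp1. Its background was 15.2% of all genes in either direction, 8.29% lower and 6.96% higher. Limma-voom called Bmp3 alone, against a background of 2.44%, with 1.67% lower and 0.773% higher. At an adjusted p under 0.1, edgeR took in 5 members, all lower, where the background was 6.63%, with 4.17% lower. With a stricter CPM filter it called 2 of 40 members, Bmp3 and Fstl3, against 3.33% of all genes, with 2.31% lower. The median log2 fold change was -0.24 over the 45 members and 0.0021 over all tested genes, and 33 members (73.3%) were below 0 against 49.7% of all genes. All 3 A2B1 libraries lay below all 3 controls for 12 members (26.7%), against 15.5% of all genes, and above them for 3 members (6.67%), against 15.1%. Without control library 2 the median over the members was -0.14. Without any single library 0 members passed in edgeR, and 10 to 14 had an unadjusted p under 0.05.

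**Figure D1:**
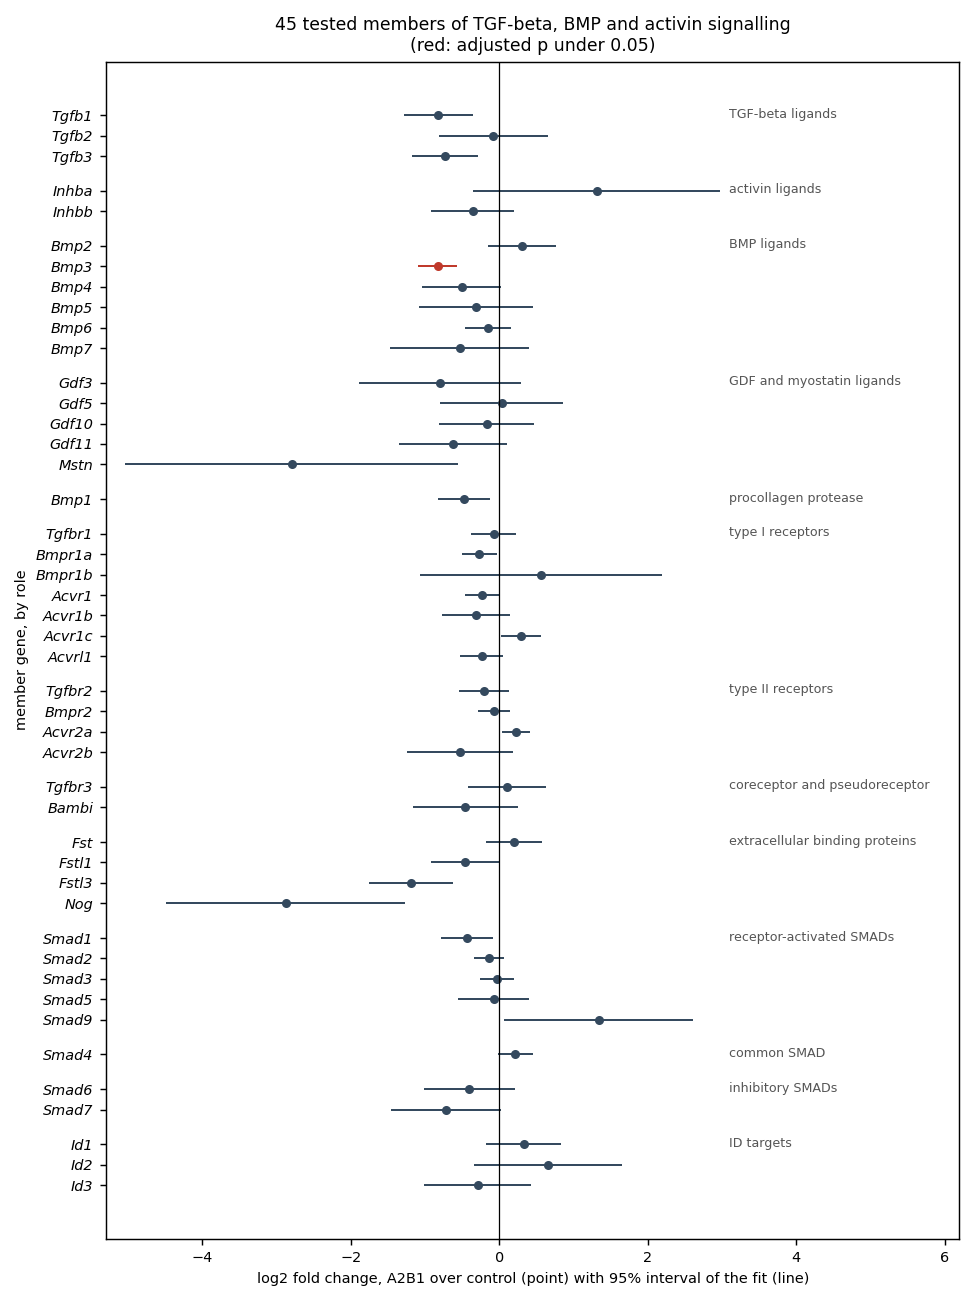
Fitted log2 fold change of A2B1 over control libraries for each of the 45 tested members, grouped by role on the vertical axis, with the 95% interval of the fit as a line. Bmp3, in red, is the single member past an adjusted p of 0.05, and 33 of the points lie below 0.

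Levels per length were set side by side as RPKM (CPM per 1000 exon bases). Fstl1, a secreted follistatin-like glycoprotein, was the most abundant member, with 44.6 ± 10.5 RPKM in A2B1 libraries and 61.5 ± 7.62 RPKM in controls (SD, n = 3 each). The coreceptor Tgfbr3 (betaglycan), which presents TGF-beta and inhibins to receptors, followed with 32.4 ± 6.91 and 30.2 ± 6.44 RPKM. In controls the next 3 were Id3 at 28.6 ± 2.34, Bmpr1a at 24.6 ± 2.35 and Acvr1c at 23.6 ± 1.48 RPKM, and these neighbours did not differ beyond their spread. In A2B1 libraries the order of these 3 was Acvr1c at 28.9 ± 2.93, Id3 at 23.3 ± 10.1 and Bmpr1a at 20.5 ± 0.139 RPKM. Among ligands Inhbb, the subunit of activin B, was highest with 15.9 ± 2.79 RPKM in A2B1 libraries and 20.4 ± 5.76 in controls. Bmp3 came second among ligands, with 8.35 ± 1.01 RPKM in A2B1 libraries and 14.8 ± 0.656 in controls. At the other end were Bmpr1b, Mstn, Bmp8b and Grem1, whose means lay between 0.00906 and 0.0504 RPKM in A2B1 libraries and between 0.0092 and 0.107 RPKM in controls.

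**Figure D2:**
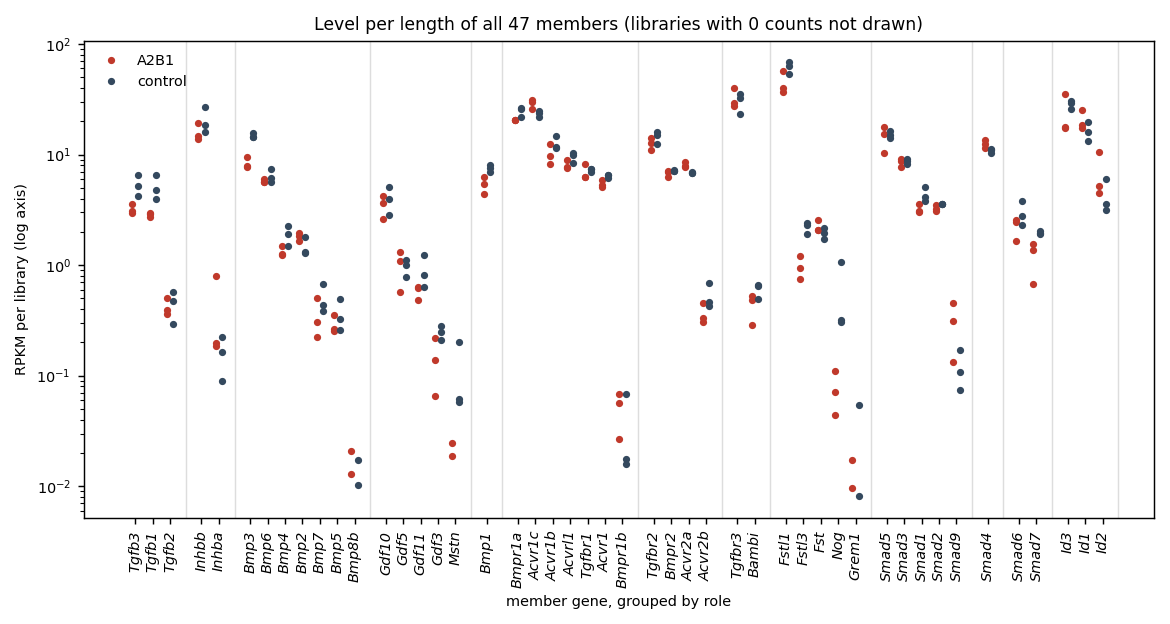
RPKM of all 47 members in each library on a log axis, grouped by role and ordered by the control mean, with A2B1 libraries to the left of controls. Fstl1 and Tgfbr3 are the highest, and Bmp8b and Grem1 the lowest.

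Bmp3 differs from most BMPs in that it opposes BMP signalling by occupying activin type II receptors. It is encoded on mm10 chromosome 5, 98854415 to 98884396, plus strand (ENSMUSG00000029335). It had 56.6, 58.4 and 70.3 CPM in A2B1 libraries 1, 2 and 3, against 106, 115 and 108 CPM in controls 1, 2 and 3. The groups were well apart, the nearest values being 70.3 CPM in A2B1 library 3 and 106 in control 1, and the controls were tight. Bmp3 fell to 0.564 of the control level (95% interval 0.474 to 0.67), which is -0.83 on the log2 scale (SE 0.10, adjusted p = 0.0268). The other 8 scalings, filters and tools kept it under 0.05, with adjusted p-values from 2.35e-09 to 0.0367. Without any single library the log2 fold change lay between -0.92 and -0.75 and the adjusted p between 0.0645 and 0.108, so the call needed all 6 libraries. With A2B1 library 2 alone, which had the fewest hepatocyte counts, it was -0.89 (adjusted p = 0.313), on the assumption that the lone library varies like the controls.

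The other BMP ligands did not pass the test. Bmp4, which commits precursor cells to the adipocyte lineage, had 3.37, 2.79 and 2.82 CPM in A2B1 libraries 1, 2 and 3 and 3.36, 5.12 and 4.30 CPM in controls. The highest A2B1 library just overlapped the lowest control (log2 fold change -0.51, SE 0.22, adjusted p = 0.213), and exons of Gm15217 overlap it on the other strand. Bmp2, a ligand of bone and fat differentiation, had 6.45 ± 0.529 CPM in A2B1 libraries and 5.2 ± 1.01 in controls (SD, n = 3 each). Bmp6, known for iron sensing in the liver, had 22.4 ± 0.99 and 24.9 ± 3.58 CPM, and Bmp7, which favours brown adipocytes, 1.39 ± 0.579 and 2.01 ± 0.63 CPM. Bmp5 had 1.17 ± 0.22 and 1.45 ± 0.493 CPM in A2B1 and control libraries. Adjusted p-values of these 4 lay between 0.347 and 0.573. On the other strand, exons of Txndc5 overlap Bmp6, those of Gm26903 overlap Bmp5, and those of Ppie and Gm17244 overlap Bmp8b. Bmp8b, a ligand of thermogenic fat, had 0, 4 and 6 counts in A2B1 libraries 1, 2 and 3 and 3, 6 and 0 counts in controls. A count of 0 allows up to 0.0434 CPM in A2B1 library 1 and 0.0358 in control 3. No difference in Bmp8b was detectable at this depth: the ratio of summed counts was 1.24 (95% counting interval 0.452 to 3.44).

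Of the TGF-beta ligands, Tgfb1 and Tgfb3 had lower values in all A2B1 libraries, without passing the edgeR test. Tgfb1, the main form released by immune cells and platelets, had 14.7, 15.1 and 13.6 CPM in A2B1 libraries 1, 2 and 3 and 32.8, 24 and 19.97 CPM in controls 1, 2 and 3. The A2B1 libraries were close together and the controls were spread out, with control 1 the highest (log2 fold change -0.82, SE 0.19, adjusted p = 0.0819). DESeq2 gave Tgfb1 an adjusted p of 0.00224, and without control library 1 the log2 fold change was -0.60. The 8 macrophage markers summed to 413, 691 and 304 CPM in A2B1 libraries and 1068, 801 and 704 CPM in controls, with none of the 8 at 0. B cell markers were also highest in control 1, but lower in control 3 (3.58 CPM) than in any A2B1 library (4.56 to 5.51 CPM). The part of these cells in the Tgfb1 values was not tested.

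Tgfb3, a form made by mesenchymal cells, had 10.4, 12 and 10.003 CPM in A2B1 libraries and 14.4, 17.4 and 22.0 CPM in controls. Here control 3 was the highest and control 1 the lowest, the reverse of their order for Tgfb1. The log2 fold change was -0.73 (SE 0.18, adjusted p = 0.0927, and 0.00484 in DESeq2). Exons of Gm37804 and Gm48008 overlap Tgfb3 on the other strand and make its count uncertain. Tgfb2 was scarcer and had overlapping groups, with 2.43 ± 0.443 CPM in A2B1 libraries and 2.57 ± 0.819 CPM in controls (adjusted p = 0.898).

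Promoter sequence from RefSeq (build GRCm38.p6) was available for 31 of the 47 members, in 37 windows. Those of Fstl3 and Tgfb1 are printed because these are the members with the smallest p that have an entry. Each is the 250 bases before the RefSeq start of transcription, 5′ to 3′ on the plus strand, at chr10:79777024-79777273 and chr7:25686752-25687001. In GENCODE the first exon of Fstl3 starts 2 bases before the end of its window, and 0 bases of the Tgfb1 window lie in its exons. Capitals mark the SMAD box CAGAC, on either strand.
Fstl3: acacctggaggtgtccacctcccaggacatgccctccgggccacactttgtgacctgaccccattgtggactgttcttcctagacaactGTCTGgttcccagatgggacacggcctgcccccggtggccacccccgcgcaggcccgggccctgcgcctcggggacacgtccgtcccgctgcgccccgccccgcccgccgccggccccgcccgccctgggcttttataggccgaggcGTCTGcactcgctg
Tgfb1: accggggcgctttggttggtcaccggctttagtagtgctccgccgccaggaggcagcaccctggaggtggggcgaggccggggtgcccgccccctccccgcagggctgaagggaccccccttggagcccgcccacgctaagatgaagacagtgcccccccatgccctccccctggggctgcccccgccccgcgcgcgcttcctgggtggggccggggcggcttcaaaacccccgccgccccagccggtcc
The SMAD box occurred 2 times before Fstl3 and 0 times before Tgfb1. It was in 16 of the 37 member windows (43.2%) and in 42.2% of all 32851 promoter windows of this length. The GC-rich SMAD motif GGCGCC was in 7 member windows (18.9%) against 9.59% of all windows, and the AP-1 motif TGANTCA in 1 (2.7%) against 6.75%. The printed windows hold neither of these, and both strands were searched with overlaps allowed. A match is a run of letters in this window and was not tested as a binding site.

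Proteins that trap ligands outside the cell included Nog, the member with the lowest fitted log2 fold change, and Fstl3, the member next to Bmp3 in p. Fstl3, which binds and neutralises activins and myostatin (mm10 chromosome 10, 79777272 to 79782630), had 2.30, 2.96 and 1.84 CPM in A2B1 libraries 1, 2 and 3 and 5.93, 4.66 and 5.63 CPM in controls. All A2B1 libraries lay below all controls. A2B1 libraries stood at 0.438 of the control level by the fit (95% interval 0.298 to 0.644), or -1.19 on the log2 scale with an SE of 0.23. The edgeR test missed the threshold (adjusted p = 0.063), while DESeq2 gave 9.18e-05, limma-voom 0.052 and edgeR with a stricter CPM filter 0.0493. Exons of Prss57 overlap Fstl3 on the other strand and make its count uncertain.

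Noggin (Nog), which holds BMPs away from their receptors, had 13, 6 and 9 counts in A2B1 libraries 1, 2 and 3 and 135, 46 and 45 counts in controls 1, 2 and 3. That is 0.188, 0.0755 and 0.121 CPM against 1.79, 0.516 and 0.538 CPM, with no overlap and control 1 far above the rest. The ratio of summed counts was 0.138 (95% counting interval 0.0896 to 0.205), and the fitted log2 fold change was -2.88 (SE 0.66, adjusted p = 0.0831). DESeq2 gave an adjusted p of 0.00198, and without control library 1 the log2 fold change was -2.03. Control 1 also had the most B cell and lymph node stroma counts. In control 3 these 2 sets of markers summed to 3.58 and 3.21 CPM, against 4.56 to 5.51 and 2.41 to 5.61 CPM in A2B1 libraries. The part of these cells in the Nog values was not tested.

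Fstl1 had 198, 278 and 182 CPM in A2B1 libraries and 312, 334 and 261 CPM in controls, so A2B1 library 2 reached into the control range (log2 fold change -0.46, adjusted p = 0.193). Follistatin (Fst), the classical activin trap, had 10.3 ± 1.33 CPM in A2B1 libraries and 8.96 ± 1.02 in controls (SD, n = 3 each; adjusted p = 0.458), with exons of Gm47040 on the other strand. Fst and Fstl3 thus had fold changes of opposite sign, 0.20 and -1.19, but the difference between the 2 genes was not tested. Gremlin (Grem1), a BMP antagonist, had 5, 0 and 3 counts in A2B1 libraries and 17, 3 and 0 in controls. The ratio of its summed counts was 0.445 with a counting interval of 0.17 to 1.06, so no difference was detectable at this depth. Its counts of 0 allow up to 0.0377 CPM in A2B1 library 2 and 0.0358 CPM in control 3.

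**Figure D3:**
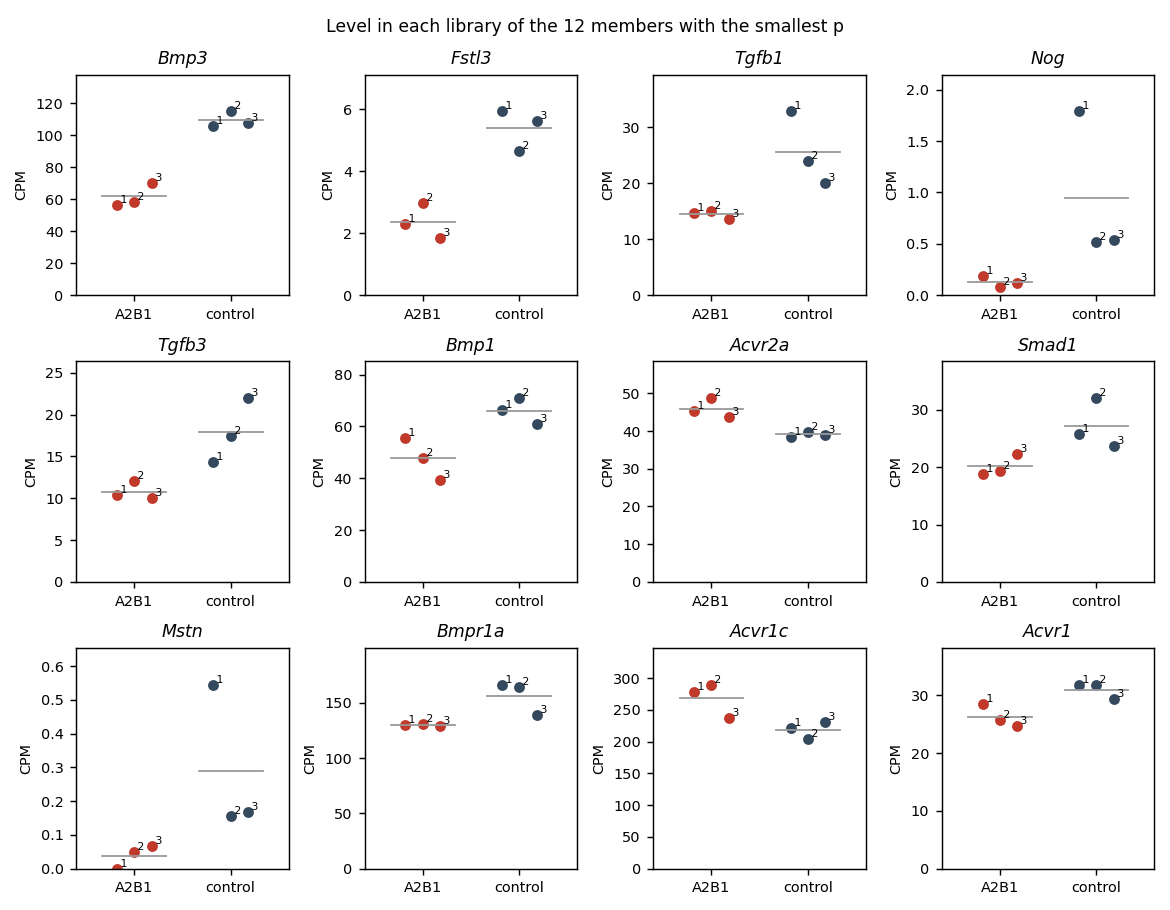
CPM in each numbered library for the 12 members with the smallest p, with A2B1 libraries left of controls and the group mean as a grey line. For Nog and Mstn control 1 stands apart, while for Bmp3 the 3 controls lie between 106 and 115 CPM, all above the A2B1 libraries.

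Bmp1 shares its name with the BMPs but is a metalloprotease that trims procollagens and releases latent TGF-beta. It had 55.7, 47.9 and 39.3 CPM in A2B1 libraries and 66.5, 70.9 and 61.1 CPM in controls. The groups did not overlap (log2 fold change -0.47, SE 0.14, adjusted p = 0.128, and 0.0316 in DESeq2). The fibroblast and progenitor markers, the cells that make most procollagen, summed to 4458, 5530 and 3581 CPM in A2B1 libraries and 5701, 5588 and 5349 CPM in controls. All 10 of these were detected in both groups, and A2B1 library 3 was lowest for Bmp1 as for these markers. A2B1 library 2 was within the control range for the marker sum but below all controls for Bmp1. Col3a1 alone had 2720 CPM of the sum in that library. Dpt, Dcn, Cd34 and Lum had all A2B1 libraries below all controls, like Bmp1 and 15.5% of all genes, while the other markers overlapped. The part of these cells in the Bmp1 values was not tested.

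Activin ligands differed in both abundance and sign. Inhbb had 62.3, 59.4 and 81.2 CPM in A2B1 libraries and 67.9, 114 and 78.0 CPM in controls, and control 2 stood above the rest. The log2 fold change of -0.36 (adjusted p = 0.366) was -0.11 without that library. Inhba, the subunit of activin A, had 5.13, 1.26 and 1.2 CPM in A2B1 libraries 1, 2 and 3 and 0.571, 1.44 and 1.04 CPM in controls. A2B1 library 1 alone lay above the controls, and it is the library with the most hepatocyte counts. A2B1 library 3 had more hepatocyte counts than library 2 but slightly less Inhba. The log2 fold change of 1.31 (adjusted p = 0.29) was 0.29 without A2B1 library 1 and 0.33 with A2B1 library 2 alone.

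Among growth differentiation factors, Mstn (myostatin), the muscle growth inhibitor, had 0, 4 and 5 counts in A2B1 libraries 1, 2 and 3 and 41, 14 and 14 counts in controls 1, 2 and 3. The groups did not overlap at 0 to 0.0672 CPM against 0.157 to 0.544 CPM, and 0 counts in A2B1 library 1 allow up to 0.0434 CPM. The ratio of summed counts was 0.145 (95% counting interval 0.0637 to 0.292), and the fit gave -2.80 on the log2 scale (SE 0.92, adjusted p = 0.157), or -1.98 without control library 1. The sum of the muscle markers was highest in control 3, where Mstn was not: Myh4 had 57.5 CPM in that library and 0 in the others. Acta1, at 1.87 to 12.8 CPM against 16.6 to 41.4 CPM in controls, had all A2B1 libraries below all controls, like Mstn. So had Myh1, Mylpf and Tnnt3, while Des had all A2B1 libraries above all controls. Of 5 tested muscle markers, 4 had an unadjusted p under 0.05 in edgeR (80%, against 24.2% of all genes). The part of muscle RNA in the Mstn values was not tested. Gdf11, the close relative of myostatin, had 2.56, 2.54 and 1.96 CPM in A2B1 libraries and 5.06, 3.30 and 2.56 in controls, with control 1 the highest. Its log2 fold change of -0.63 (adjusted p = 0.253) was -0.31 without control library 1.

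Gdf3, a ligand that acts through Acvr1c in fat, had 0.159, 0.528 and 0.336 CPM in A2B1 libraries and 0.677, 0.606 and 0.514 CPM in controls (log2 fold change -0.80, adjusted p = 0.318), with A2B1 library 2 inside the control range. The log2 fold change was -0.45 without A2B1 library 1, -1.26 without A2B1 library 2 and -0.16 with A2B1 library 2 alone. The ratio of summed counts was 0.587 (95% counting interval 0.44 to 0.777). Gdf10, also known as Bmp3b and made by fat progenitors, had 18.2 ± 4.21 CPM in A2B1 libraries and 20.5 ± 5.78 in controls (SD, n = 3 each). Gdf5, a joint-forming ligand, had 2.30 ± 0.872 and 2.25 ± 0.386 CPM. Both had widely overlapping groups, with adjusted p-values of 0.721 and 0.967.

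Type I receptors showed small differences. Acvr1c had 279, 289 and 238 CPM in A2B1 libraries 1, 2 and 3 and 222, 204 and 231 CPM in controls. All A2B1 libraries were above all controls, narrowly in library 3 (log2 fold change 0.29, SE 0.10, adjusted p = 0.169). Exons of Gm13544 overlap Acvr1c on the other strand. The 10 adipocyte markers summed to 33334 to 35737 CPM in A2B1 libraries and 34284 to 39177 CPM in controls. Fabp4 alone made up 16384 to 17450 CPM of the sum in A2B1 libraries and 15699 to 16988 CPM in controls, so the sum mostly follows a few abundant genes. Of the 10 adipocyte markers, Lep (leptin) and Cidec fell and 0 rose by edgeR's adjusted p, where 1.33% of all genes were called lower. An unadjusted p under 0.05 was found for 7 (70%, against 24.2% of all genes). DESeq2 called 5 (50%, against 15.2% of all genes). Plin1, Retn and Pnpla2, like Acvr1c, had all A2B1 libraries above all controls, as did 15.1% of all genes. Lep, Cidec and Adipoq had all A2B1 libraries below all controls, as did 15.5% of all genes. The 7 thermogenic adipocyte markers summed to 140.5 to 237 CPM in A2B1 libraries and 40.2 to 66.8 CPM in controls. By edgeR's adjusted p 2 of these 7 rose, Cidea and Cox8b, where 0.496% of all genes were called higher. Dio2 had a negative log2 fold change (-0.54), while the other 6 were positive. Elovl3 was uneven, with 60.5, 0.340 and 5.79 CPM in A2B1 libraries 1, 2 and 3 and 0.454 to 3.83 CPM in controls. The part of changes in adipocytes in the Acvr1c values was not tested.

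Bmpr1a, the BMP receptor ALK3, had 130, 131 and 129 CPM in A2B1 libraries and 166, 164 and 139 CPM in controls. The A2B1 libraries were nearly equal and all below the controls (log2 fold change -0.27, SE 0.09, adjusted p = 0.163), and exons of Gm17110 overlap it on the other strand. Acvr1 (ALK2), which pairs with BMP and activin type II receptors, had 28.5, 25.7 and 24.6 CPM in A2B1 libraries and 31.8, 31.8 and 29.4 in controls, again with no overlap (log2 fold change -0.24, adjusted p = 0.179). Under scaling by library totals Bmpr1a and Acvr1 kept negative values and Acvr1c a positive one.

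The activin receptor Acvr1b (ALK4) had 55.3, 42.6 and 36.0 CPM in A2B1 libraries and 65.2, 51.1 and 50.3 in controls, with overlap and an adjusted p of 0.333. Acvrl1 (ALK1), the endothelial receptor for BMP9 and BMP10, had 32.4, 38.4 and 32.6 CPM in A2B1 libraries and 35.7, 42.2 and 44.0 in controls (log2 fold change -0.24, adjusted p = 0.266), and exons of Gm16031 overlap it on the other strand. Endothelial markers summed to 972 to 1177 CPM in A2B1 libraries and 1095 to 1585 CPM in controls. Tgfbr1 (ALK5), the receptor of TGF-beta itself, had 44.8 ± 7.13 and 47.3 ± 1.72 CPM (SD, n = 3 each; adjusted p = 0.73). Bmpr1b had 68 counts in the A2B1 libraries together and 52 in the controls, a ratio of 1.46 with a 95% counting interval of 1.00 to 2.13, and control 2 held 36 of the 52.

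Of the type II receptors, the activin receptor Acvr2a had 45.2, 48.7 and 43.6 CPM in A2B1 libraries and 38.5, 39.9 and 39.1 CPM in controls. The groups did not overlap, but the fitted ratio was 1.17 (95% interval 1.04 to 1.32) and the adjusted p 0.152, and exons of Orc4 overlap it on the other strand. The related Acvr2b had 1.80, 1.19 and 1.32 CPM in A2B1 libraries and 1.67, 2.73 and 1.80 in controls, with overlap (log2 fold change -0.53, adjusted p = 0.312). Tgfbr2, the type II receptor of TGF-beta, had 103 ± 13.0 CPM in A2B1 libraries and 118 ± 14.7 in controls, and Bmpr2, that of the BMPs, 122 ± 9.16 and 128 ± 1.11 CPM (SD, n = 3 each). Their log2 fold changes were -0.20 (95% interval -0.52 to 0.12) and -0.07 (95% interval -0.27 to 0.13). The coreceptor Tgfbr3 had 212 ± 45.2 and 198 ± 42.2 CPM with an adjusted p of 0.809, and exons of Gm43422 overlap it on the same strand. Bambi, a decoy receptor with no kinase, had 2.21 ± 0.657 and 3.03 ± 0.467 CPM (adjusted p = 0.368).

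Among the SMADs that receptors activate, Smad1 of the BMP branch had 18.9, 19.3 and 22.3 CPM in A2B1 libraries and 25.8, 32.1 and 23.7 CPM in controls. All A2B1 libraries lay below all controls (log2 fold change -0.43, SE 0.14, adjusted p = 0.155). Smad5, the most abundant of this branch, had 107 ± 27.4 CPM in A2B1 libraries and 113 ± 8.47 in controls (SD, n = 3 each; adjusted p = 0.848). Smad9 (Smad8) had 2.45, 0.717 and 1.67 CPM in A2B1 libraries 1, 2 and 3 and 0.398, 0.583 and 0.92 CPM in controls. The order of the A2B1 libraries, with 1 highest and 2 lowest, was that of their hepatocyte counts. On the log2 scale the difference of 1.34 (SE 0.52, adjusted p = 0.189) was 0.92 without A2B1 library 1 and 0.20 with A2B1 library 2 alone. The part of liver RNA in the Smad9, Inhba and Id2 values was not tested.

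Of the TGF-beta and activin branch, Smad2 had 27.1, 30.5 and 28.1 CPM in A2B1 libraries and 31.5, 31.3 and 31.5 CPM in controls. The controls were almost equal and above every A2B1 library, yet the log2 fold change was -0.14 (adjusted p = 0.322). Smad3 had 47 ± 3.87 and 48.1 ± 2.53 CPM (SD, n = 3 each). Its log2 fold change was -0.03 with a 95% interval from -0.25 to 0.18. The shared partner Smad4 had 42.1, 50.7 and 46.6 CPM in A2B1 libraries and 41.7, 40.6 and 38.0 in controls, all A2B1 libraries above all controls by a narrow margin (log2 fold change 0.21, adjusted p = 0.219).

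The inhibitory SMADs, themselves induced by the pathway as feedback, were not called. Smad7 had 6.15, 3.08 and 7.02 CPM in A2B1 libraries and 8.72, 9.11 and 8.90 CPM in controls. A2B1 library 2 was lowest and the controls were tight (log2 fold change -0.72, SE 0.30, adjusted p = 0.21). The value was -0.43 without A2B1 library 2 and -1.51 with that library alone. Smad6, which acts mainly on the BMP branch, had 7.15 ± 1.57 CPM in A2B1 libraries and 9.45 ± 2.40 in controls (SD, n = 3 each; adjusted p = 0.361).

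The ID genes encode inhibitors of basic helix-loop-helix factors and are a standard transcriptional readout of BMP signalling. Id1 had 21.2, 20.1 and 29.6 CPM in A2B1 libraries and 15.3, 18.6 and 22.6 CPM in controls, with overlap (adjusted p = 0.366). Id2 had 25.6, 11 and 12.5 CPM in A2B1 libraries and 14.7, 8.64 and 7.75 in controls, the highest value being in A2B1 library 1. Its log2 fold change of 0.66 (adjusted p = 0.362) was 0.20 without that library. Id3 had 30.8, 31.9 and 62.7 CPM in A2B1 libraries and 46.5, 54.6 and 52.4 in controls, so A2B1 libraries lay on both sides of the control range. Its log2 fold change was -0.29 with a 95% interval from -0.997 to 0.415, and leaving out 1 library moved it from -0.70 (without A2B1 library 3) to -0.096 (without A2B1 library 1). The 3 ID genes therefore had no common sign.

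**Figure D4:**
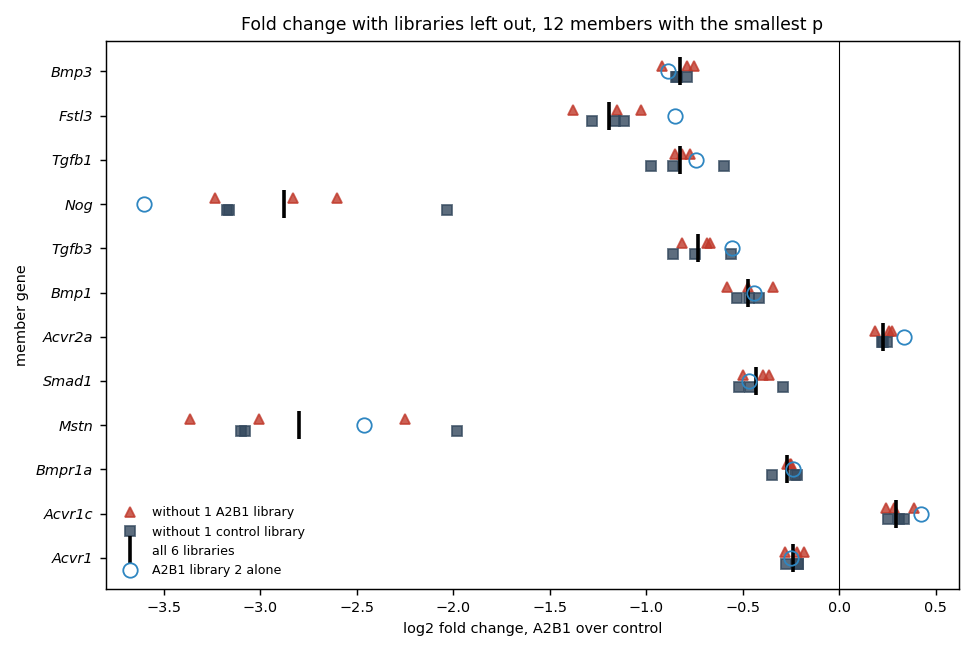
Log2 fold change of the 12 members with the smallest p on the horizontal axis with all 6 libraries (bar), without 1 A2B1 library (triangles), without 1 control library (squares) and with A2B1 library 2 alone against the controls (circle). None of these 12 changed sign, and Nog and Mstn moved most when control 1 was left out, to -2.03 and -1.98.

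**Figure D5:**
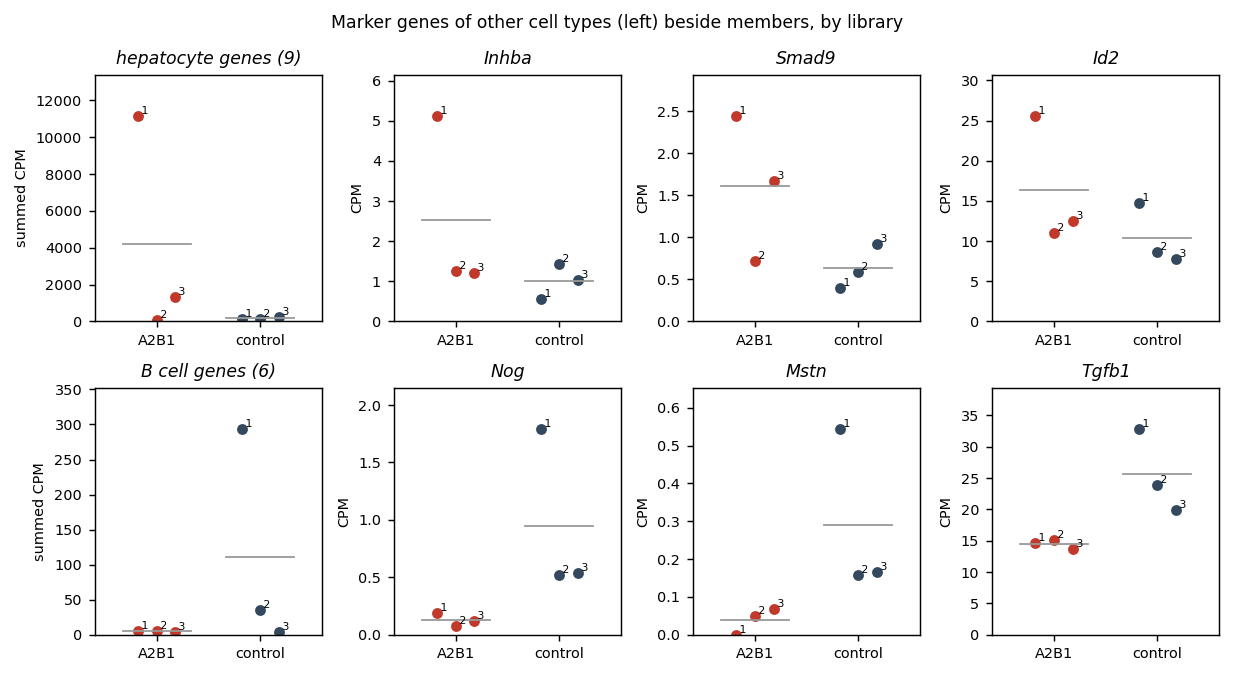
CPM in each numbered library, A2B1 left of control, of summed hepatocyte genes beside Inhba, Smad9 and Id2 (top), and of summed B cell genes beside Nog, Mstn and Tgfb1 (bottom). The 6 members were chosen for sharing the highest library of their row, A2B1 library 1 in the top and control 1 in the bottom. In control 3, B cell genes (3.58 CPM) lay below all A2B1 libraries (4.56 to 5.51 CPM), while Nog, Mstn and Tgfb1 lay above them. Over all 45 members A2B1 library 1 was the highest A2B1 library in 14 and control 1 the highest control in 12, while control 2 was the highest control in 26.

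Beyond the members, 116 tested genes of the wider pathway, in 7 lists, held 5 that passed the edgeR test, and all 5 fell: Itgb5, Htra1, Sptbn1, Tgfbi and Acta2. That is 4.31%, against a background of 1.82% of all genes. The lists were chosen with earlier results of these data known, so shares above the background are a description and not a test of the pathway. Genes in more than 1 list, such as Ltbp2, Lox and Thbs1, counted once. Of the 116, 29 (25%) had an unadjusted p under 0.05, close to the 24.2% of all genes, and DESeq2 called 21 (18.1%), against 15.2% of all genes. Without any single library 0 of these genes passed in edgeR, and 23 to 33 had an unadjusted p under 0.05. Among 19 genes that store and activate latent TGF-beta, DESeq2 called 6 (31.6%, against 15.2% of all genes). An unadjusted p under 0.05 was found for 6 (31.6%, against 24.2% of all genes). By edgeR's adjusted p 1 fell and 0 rose (median log2 fold change -0.38). It was Itgb5, an integrin subunit that can bind latent TGF-beta, with 80.8, 96.9 and 89.96 CPM in A2B1 libraries and 131, 147 and 161 CPM in controls (log2 fold change -0.71, SE 0.11, adjusted p = 0.0402). Ltbp2, a relative of the latent TGF-beta binding proteins, had the opposite sign, with 116, 121 and 77.5 CPM in A2B1 libraries and 60.3, 54.8 and 50.8 in controls (log2 fold change 0.92, adjusted p = 0.064), and exons of D030025P21Rik overlap it on the other strand.

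Of 26 transcriptional targets of TGF-beta, 2 fell and 0 rose by edgeR's adjusted p, where 1.33% of all genes were called lower. The median log2 fold change was -0.32, and DESeq2 called 6 (23.1%, against 15.2% of all genes). An unadjusted p under 0.05 was found for 7 (26.9%), close to the 24.2% of all genes. Tgfbi, a matrix protein named for its induction by TGF-beta, had 39.0, 48.2 and 44.6 CPM in A2B1 libraries and 76.8, 90.2 and 79.2 CPM in controls (log2 fold change -0.90, SE 0.11, adjusted p = 0.0253). Acta2, the smooth muscle actin of mural cells and myofibroblasts, had 58.8, 73.1 and 44.8 CPM in A2B1 libraries and 137, 178 and 139 in controls (log2 fold change -1.36, SE 0.20, adjusted p = 0.0375). The 9 mural markers, of which Acta2 is one, summed to 940 to 1095 CPM in A2B1 libraries and 1238 to 1765 CPM in controls, with none at 0. Their part in the Acta2 values was not tested.

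Of 11 BMP targets that are not members, 0 passed in edgeR, DESeq2 or limma-voom. Of the same 11, 0 had an unadjusted p under 0.05, against 24.2% of all genes. The smallest p-values belonged to Atoh8, with 4.91 ± 0.527 CPM in A2B1 libraries and 3.66 ± 0.729 in controls, and to Unc5b, with 9.40 ± 1.64 and 12.1 ± 2.58 CPM (SD, n = 3 each). Of 31 SMAD cofactors and turnover genes, DESeq2 called 3 (9.68%, against 15.2% of all genes), and by edgeR 1 fell and 0 rose. It was Sptbn1, a spectrin that assists SMAD signalling, with 1225 to 1405 CPM in A2B1 libraries and 1970 to 2467 in controls (log2 fold change -0.76, adjusted p = 0.0402), and exons of Gm29237 overlap it on the other strand. Dab2, an endocytic adaptor of TGF-beta receptors, had 34.0 ± 6.21 and 50.03 ± 6.44 CPM (SD, n = 3 each; adjusted p = 0.131).

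Of 16 further secreted antagonists, DESeq2 called 3 (18.8%, against 15.2% of all genes). An unadjusted p under 0.05 was found for 7 (43.8%, against 24.2% of all genes). By edgeR 1 fell and 0 rose: Htra1, a serine protease that can cut family ligands. It had 125, 146 and 128 CPM in A2B1 libraries and 193, 195 and 204 CPM in controls (log2 fold change -0.57, adjusted p = 0.0402). The BMP antagonist Nbl1 had 12.4 ± 1.05 and 20.9 ± 3.92 CPM (SD, n = 3 each; adjusted p = 0.069). Of 11 further coreceptors 0 passed in edgeR or limma-voom. DESeq2 called 2 (18.2%, against 15.2% of all genes), and 3 had an unadjusted p under 0.05 (27.3%, against 24.2% of all genes). Cd109, a coreceptor that dampens TGF-beta signalling, had 4.52 ± 0.723 CPM in A2B1 libraries and 7.85 ± 0.593 in controls (adjusted p = 0.0719), and Nrp2, a neuropilin, 50.5 ± 6.38 and 80.0 ± 20.4 CPM (SD, n = 3 each).

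Among 8 tested further ligands 0 passed in edgeR or limma-voom, while 2 (25%) passed in DESeq2, against 15.2% of all genes. An unadjusted p under 0.05 was found for 2 (25%), against 24.2% of all genes. The liver-made activin subunits Inhbc and Inhbe had 7.53, 0.113 and 1.32 CPM and 4.47, 0.088 and 0.793 CPM in A2B1 libraries 1, 2 and 3. In controls Inhbc had 0.0929 to 0.251 CPM and Inhbe 0.0337 to 0.191 CPM. Both were high in A2B1 libraries 1 and 3 and within the control range in library 2, the same order as the hepatocyte genes. The BMP coreceptor Hfe2 (hemojuvelin) of liver and muscle, named after its values were seen, had 9.37, 0.302 and 1.45 CPM in these libraries and 0.191 to 1.11 CPM in controls. The part of liver RNA in these values was not tested.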

How the data were processed

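RNA was extracted with Trizol from frozen fat and made into Illumina TruSeq libraries, per the labels' protocols. The submitters' processing notes name Bowtie and mm10. No counting program, annotation, filter or strand setting was stated in the sources used here. Per the file headers, the deposited table gives counts per gene, whole numbers that were not normalized. The depth of 72961324 to 86663359 counts per library sets the precision, and counting intervals and floors (3 counts) cover counting error only. Members and lists were chosen with earlier results of these data known, and the hepatocyte list and the fit with A2B1 library 2 alone after seeing these values.

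In R 4.3.3, the 19146 genes kept by filterByExpr were tested with edgeR 4.0.16 (quasi-likelihood F test, TMM, robust, no covariate, two-sided), adjusting over all of them by Benjamini-Hochberg. The SE is the size of the log2 fold change divided by the square root of F. CPM use TMM-scaled totals. Alternatives included DESeq2 1.42.0 and limma-voom (limma 3.58.1). The fit was checked on simulated counts. Coordinates, exon lengths for RPKM and exon overlaps came from GENCODE M21 (mm10). Exons of 2 members, Tgfbr3 and Smad5, overlap another gene on the same strand. Those of 13 members do so on the other strand, Bmp5, Bmp6, Bmp8b, Gdf5 and Tgfb2 among them. Named were all members, with library values for the 24 with the smallest p and for others that a comparison needed, and, of each wider list, called genes and the 2 with the smallest p. No library was a copy of another.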

Additional observations from a re-analysis of the deposited data

How the results depend on the processing

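No paired analysis was possible because the groups share no replicate numbers in the labels. Calls over all genes numbered 349, and 10 to 57 without 1 library, 7 with 2 libraries against 2, 2919 with DESeq2, 1270 at an adjusted p of 0.1 and 0 with A2B1 library 2 alone, a setting chosen after seeing the data. Calls among members numbered 1, against 2 with the CPM filter, 6 with DESeq2 and 5 at 0.1, and 0 in edgeR without any 1 library, with 2 against 2 or with A2B1 library 2 alone, where 10 to 14 had an unadjusted p under 0.05. Calls in the wider lists numbered 5, against 3 with library totals, 21 with DESeq2, 14 at 0.1 and 0 in the fits with fewer libraries (20 to 33 unadjusted). The member median of -0.24 ranged from -0.30 to -0.14 without 1 library. Over 16 other fits, which gave 715 values for the 45 members since some filters dropped a few, 36 members kept their sign wherever they had a value. Inhba was -0.012 with 2 against 2. Gdf5 was -0.018 with library totals, -0.017 with 2 against 2, -0.040 with limma-voom, -0.73 with A2B1 library 2 alone and -0.21 to 0.31 without 1 library. With A2B1 library 2 alone Bmpr2 was 0.027, Gdf10 0.11, Tgfbr1 0.19, Tgfbr3 -0.016, Smad5 0.23 and Smad3 0.027. Without 1 library Bmpr2 ranged from -0.11 to 0.0067, Gdf10 from -0.36 to 0.053, Tgfbr1 from -0.21 to 0.0070, Tgfbr3 from -0.078 to 0.23, Smad5 from -0.23 to 0.13, Smad3 from -0.073 to 0.043 and Tgfb2 from -0.31 to 0.14. The cause was not tested. Depth limits Bmp8b and Grem1.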
